A study of Mus musculus with 6 samples.

Results

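The genes of the elastic fibre and its associated fibulins were followed in sorted choroid endothelial cells (ECs), the cells that line the vessels behind the retinal pigment epithelium (RPE). They were picked by symbol and are elastin (Eln), the fibrillins Fbn1 and Fbn2, the microfibril protein gene Mfap2, the fibulins Efemp1, Efemp2, Fbln5 and Fbln2, and the cross-linking enzyme genes Loxl1 and Loxl2. All 10 were among the 22026 gene symbols of the deposited files, and all 10 were among the 12481 genes tested, which had a mean of at least 5 FPKM (a count of sequenced fragments scaled to transcript length and library size) in at least 1 age. The cells came from the RPE/choroid of 129/B6 mice at postnatal day 5 (P5) or postnatal day 30 (P30), with 3 isolations per age, numbered here as the replicates in the labels, and 7 animals pooled in each. An antibody to VE-Cadherin was injected into the living animals and the labelled cells were sorted, so that a sample is a pool of VE-Cadherin-positive cells and not a single vessel type. The study compared the ages because the outer blood-retina barrier matures between them.

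Elastic fibres have a core of cross-linked elastin laid down on a scaffold of microfibrils, which are polymers of fibrillin decorated with smaller glycoproteins. Fibulins bind both tropoelastin and the microfibrils and help to place elastin and the cross-linking enzymes, and the lysyl oxidase family oxidizes lysines so that elastin and collagen chains can be joined. Bruch's membrane, the layered sheet between choroid capillaries and RPE, has an elastic layer at its centre.

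Sequence was at hand in RefSeq for the promoters of 6 of the 10 genes (Fbn1, Efemp1, Efemp2, Fbln5, Fbln2 and Mfap2). The 250 bases before a transcription start are shown for a pair of related fibulins, Efemp1, which rose between the ages, and Fbln5 (the more upstream of its 2 starts), which did not pass the test, so that their upstream letters can be compared. Capitals mark GC boxes (GGGCGG or its reverse complement CCGCCC), a motif of Sp-family factors.
Efemp1: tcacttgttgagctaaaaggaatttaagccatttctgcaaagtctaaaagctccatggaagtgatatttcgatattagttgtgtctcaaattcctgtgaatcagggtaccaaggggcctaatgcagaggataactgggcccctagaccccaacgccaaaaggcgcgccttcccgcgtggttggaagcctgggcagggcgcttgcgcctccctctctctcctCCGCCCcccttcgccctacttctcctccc
Fbln5: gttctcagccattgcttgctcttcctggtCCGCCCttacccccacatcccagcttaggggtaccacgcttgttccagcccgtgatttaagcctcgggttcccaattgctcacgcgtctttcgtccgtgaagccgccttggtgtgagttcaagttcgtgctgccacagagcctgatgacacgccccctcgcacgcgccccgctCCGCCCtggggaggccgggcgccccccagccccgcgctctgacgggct
Both sequences are given in the direction of transcription and come from the RefSeq table of GRCm38.p6. Each had a single exact match in mm9 on the chromosome and strand of its gene, and other chromosomes were not searched. The Efemp1 window is chr11:28752955-28753204 on the plus strand, and the Fbln5 window is chr12:103057330-103057579 on the minus strand. Efemp1 held 1 GC box and had a G and C content of 53.6%, and this Fbln5 window held 2 and had 65.2%. RefSeq gives Fbln5 another start, whose window (chr12:103056695-103056944, minus strand) held 0 GC boxes and had 49.6%, so that the comparison with Efemp1 depends on the start chosen. GC boxes were found, on either strand, in 32.7% of the 32851 promoter windows of the same length, so their presence is common. None of these windows held TATAAA (in 12.4% of all windows), CACGTG (6.02%) or TGAGTCA (4.46%), searched on both strands.

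The transcripts of the elastic fibre did not move as a block between P5 and P30. Of the 10 genes, Efemp1 was higher at P30, Fbn2 and Loxl2 were higher at P5, and 7 did not pass the limits, which were an adjusted p under 0.01 in limma together with a 2-fold or larger ratio of mean FPKM + 1. In bulk samples such as these, fewer cells of a type and less RNA per cell cannot be told apart. By the same limits, the background was 5.89% of all genes tested for P30 and 5.82% for P5. The 10 genes had a median log2 fold change of -0.44, and all genes tested one of -0.10. Fold changes here are the difference in mean log2(FPKM + 1), P30 minus P5, from limma, and understate the change of genes with low FPKM. Every P30 isolation lay above every P5 isolation for Efemp1 and Loxl1, which 22% of all genes did, and below for Fbn2, Fbln5 and Loxl2, which 33% of all genes did.

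**Figure D1:**
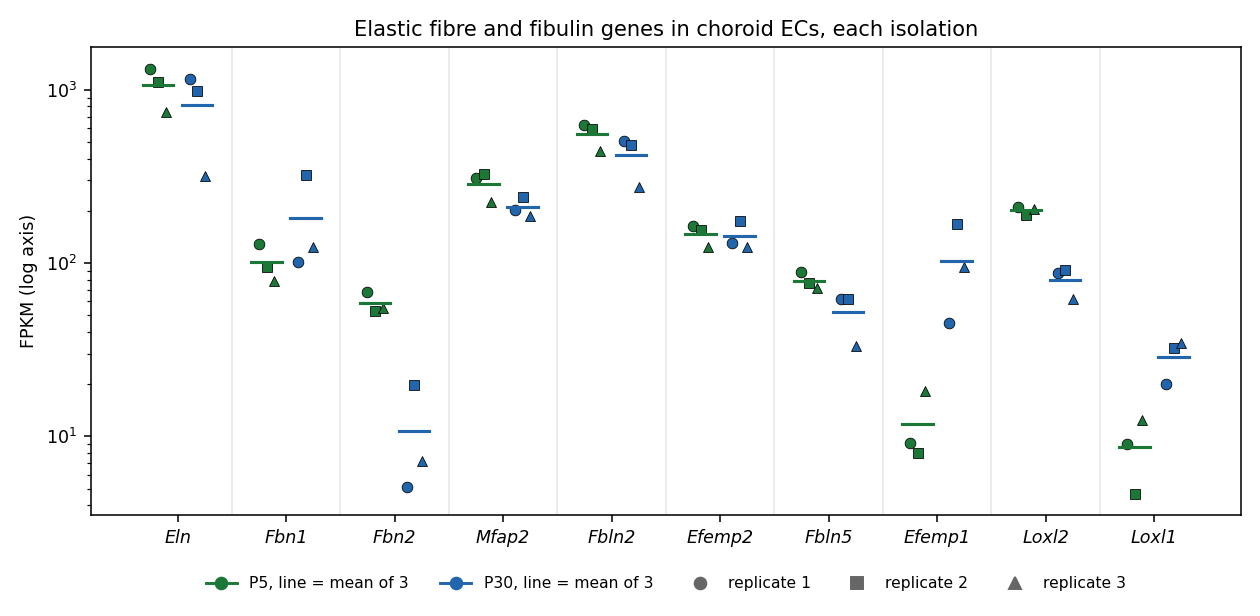
FPKM (log axis) of the 10 elastic fibre and fibulin genes in each of the 3 P5 (green) and 3 P30 (blue) isolations, with the symbol shape giving the isolation and a line the mean. The ages are apart for Fbn2, Efemp1, Loxl2, Loxl1 and, narrowly, Fbln5, and overlap for the other genes.

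**Figure D2:**
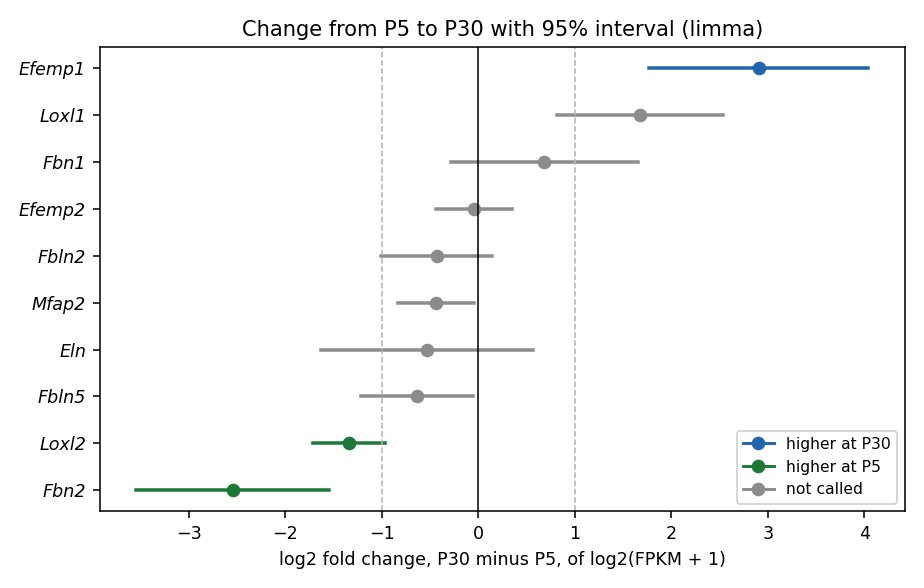
Log2 fold change from P5 to P30 (x axis, difference in mean log2(FPKM + 1)) of each gene with its 95% interval from limma, dashed lines marking a 2-fold difference. Efemp1 lies to the right and Fbn2 and Loxl2 to the left, while the intervals of Eln, Fbn1, Fbln2 and Efemp2 include 0.

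Elastin was the most abundant of these transcripts. FPKM is scaled to transcript length, so that levels of different genes can be set side by side. At P5, the mean FPKM of Eln was above that of 98.9% of all genes tested, and it was followed by Fbln2, Mfap2, Loxl2, Efemp2, Fbn1, Fbln5, Fbn2, Efemp1 and Loxl1. In this order, 6 of the 9 pairs of neighbours had ranges over the isolations that did not meet, the exceptions being Efemp2 and Fbn1, Fbn1 and Fbln5, and Efemp1 and Loxl1. At P30 the order was Eln, Fbln2, Mfap2, Fbn1, Efemp2, Efemp1, Loxl2, Fbln5, Loxl1 and Fbn2, and the ranges of neighbours were apart only for Fbln2 above Mfap2 and for Loxl1 above Fbn2. Fbn2 went from the eighth place to the last. The summed FPKM of the 10 genes was 2931, 2609 and 1976 in P5 isolations 1 to 3, and 2307, 2564 and 1258 in P30 isolations 1 to 3. The sums overlapped, with P30 isolation 3 below the rest.

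Eln (chromosome 5, 135179651 to 135223111 of mm9, minus strand) encodes tropoelastin, the soluble precursor of the elastic core. Its FPKM was 1322, 1109 and 744 in P5 isolations 1 to 3, and 1146, 979 and 318 in P30 isolations 1 to 3. P30 isolations 1 and 2 lay within the P5 range, and P30 isolation 3 was below every other isolation. The mean was 1058 ± 292 at P5 and 814 ± 438 at P30 (SD, n = 3), and the difference did not pass the test (limma log2 fold change -0.54 with SE 0.47 and 95% interval -1.64 to 0.56, adjusted p = 0.390). Without P30 isolation 3 the log2 fold change was 0.04 (adjusted p = 0.902 from limma), so that even its direction rested on that library. The interval leaves room for a fall of more than 2-fold.

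Of the fibrillins, which polymerize into the microfibril, Fbn2 fell and Fbn1 did not pass the test. Fbn2, the fibrillin best known from fetal and early postnatal tissue, had an FPKM of 67.6, 53.0 and 55.4 in P5 isolations 1 to 3. It had 5.09, 19.9 and 7.21 in P30 isolations 1 to 3, all far below P5. Mean FPKM was 5.47-fold lower at P30, from 58.7 ± 7.83 to 10.7 ± 8.003 (SD, n = 3, limma log2 fold change -2.55 with SE 0.43, adjusted p = 0.00397). Fbn2 had the most negative log2 fold change of the 10 genes and was number 245 of all genes tested counted from the most negative. With 1 isolation fewer the call was lost without P5 isolation 1, 2 or 3 (adjusted p = 0.0195, 0.0184 and 0.0218 from limma) or P30 isolation 3 (adjusted p = 0.0117 from limma), while the log2 fold change stayed between -3.07 and -2.18.

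Fbn1 (chromosome 2, 125126330 to 125333729 of mm9, minus strand), the main fibrillin of adult tissue and the gene of Marfan syndrome, had 129, 95.2 and 78.4 FPKM in P5 isolations 1 to 3. In P30 isolations 1 to 3 it had 101.8, 320.3 and 124. P30 isolations 1 and 3 lay within the P5 range and P30 isolation 2 stood well above it. The mean was 101 ± 25.9 at P5 and 182 ± 120.3 at P30 (SD, n = 3, limma log2 fold change 0.68 with SE 0.41 and 95% interval -0.28 to 1.65, adjusted p = 0.222). Without P30 isolation 2 the log2 fold change was 0.18 (adjusted p = 0.538 from limma). On the opposite strand, 2442 exonic bases are shared with the annotated gene Gm9913, and reads of the pair cannot be told apart without strand, which the sources used here do not mention.

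As a share of the FPKM of both fibrillins, Fbn1 made up 65.7%, 64.2% and 58.6% in P5 isolations 1 to 3. Its share was 95.2%, 94.1% and 94.5% in P30 isolations 1 to 3. The P30 shares were close together, with a mean of 94.6 ± 0.553% (SD, n = 3), although Fbn1 itself differed 3.15-fold and Fbn2 3.91-fold among the same isolations. At P5 the mean share was 62.8 ± 3.72% (SD, n = 3). These shares are a description, as both genes were chosen with their levels known.

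Mfap2 (chromosome 4, 140566333 to 140571899 of mm9, plus strand), which encodes the microfibril-associated glycoprotein MAGP-1 that binds fibrillin, had 309, 327.5 and 224 FPKM in P5 isolations 1 to 3. In P30 isolations 1 to 3 it had 202, 240.4 and 186, so that P30 isolation 2 lay above P5 isolation 3. The mean went from 287 ± 55.1 to 209 ± 28.2 (SD, n = 3, limma log2 fold change -0.44 with SE 0.17, adjusted p = 0.0745). Mfap2 varied less among the P30 isolations than any other of the 10 genes, with a highest value 1.30 times the lowest.

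Among the 4 fibulins of the 10 genes, Efemp1 alone passed the test. Efemp1 (chromosome 11, 28753204 to 28826743 of mm9, plus strand) encodes fibulin-3, a glycoprotein whose human gene carries the mutation of an inherited drusen disease of Bruch's membrane. Its FPKM was 9.11, 8.05 and 18.2 in P5 isolations 1 to 3, and 44.98, 167 and 94.6 in P30 isolations 1 to 3. Every P30 value was above every P5 value, and the P30 values differed 3.72-fold among themselves. Mean FPKM was 8.68-fold higher at P30, from 11.8 ± 5.56 to 102.2 ± 61.5 (SD, n = 3, limma log2 fold change 2.91 with SE 0.49, adjusted p = 0.00394). The call was lost when P5 isolation 1, 2 or 3 was left out (adjusted p = 0.0180, 0.0197 and 0.0104 from limma), without P30 isolation 3 (adjusted p = 0.0118 from limma), and without a trend in the variance (adjusted p = 0.0102 from limma).

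Fbln2 (chromosome 6, 91162449 to 91222534 of mm9, plus strand), which encodes fibulin-2, was the most abundant fibulin at both ages. It had 624, 590 and 444 FPKM in P5 isolations 1 to 3, and 507, 476 and 275 in P30 isolations 1 to 3. The groups overlapped, and isolation 3 was the lowest at both ages (limma log2 fold change -0.43 with SE 0.25 and 95% interval -1.01 to 0.14, adjusted p = 0.2). Efemp2 (chromosome 19, 5473973 to 5481853 of mm9, plus strand), which encodes fibulin-4, a protein needed for elastin cross-linking, had 163, 155 and 123 FPKM in P5 isolations 1 to 3 and 131, 175 and 123 in P30 isolations 1 to 3. Its log2 fold change was -0.05 (SE 0.17, 95% interval -0.44 to 0.35, adjusted p = 0.844 from limma), an interval within a 2-fold difference in either direction, and its sign turned when P5 isolation 1, P30 isolation 1 or P30 isolation 3 was left out (0.03, 0.01 and 0.05).

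Fbln5 (chromosome 12, 102984775 to 103057265 of mm9, minus strand) encodes fibulin-5, which tethers elastin to cells through integrins. It had 88.5, 76.5 and 72.2 FPKM in P5 isolations 1 to 3, and 62.0, 62.2 and 33.1 in P30 isolations 1 to 3. All P30 isolations were below all P5 isolations, but the difference did not pass the test (limma log2 fold change -0.63 with SE 0.25 and 95% interval -1.22 to -0.05, adjusted p = 0.0797). Efemp1 took 1.03%, 0.97% and 2.76% of the summed FPKM of the 4 fibulins in P5 isolations 1 to 3, and 6.04%, 19.0% and 17.96% in P30 isolations 1 to 3. The sum itself was 791 ± 118 FPKM at P5 and 717 ± 179 FPKM at P30 (SD, n = 3).

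The lysyl oxidase-like enzymes had unlike profiles. Loxl2 (chromosome 14, 70008978 to 70095640 of mm9, plus strand), which oxidizes type IV collagen of basement membranes as well as elastin, had 211, 190.2 and 204 FPKM in P5 isolations 1 to 3. In P30 isolations 1 to 3 it had 87.7, 90.6 and 61.8, all below P5. Mean FPKM was 2.52-fold lower at P30, from 202 ± 10.5 to 80.0 ± 15.9 (SD, n = 3, limma log2 fold change -1.34 with SE 0.16, adjusted p = 0.000974). Of the 3 genes called, Loxl2 alone kept its call in all 16 alternative fits, with log2 fold changes between -1.51 and -1.17.

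Loxl1 (chromosome 9, 58135530 to 58161019 of mm9, minus strand), the enzyme most closely tied to elastin renewal in adult tissue, was the scarcest of the 10 at P5. It had 9.08, 4.64 and 12.4 FPKM in P5 isolations 1 to 3, and 19.97, 32.3 and 34.4 in P30 isolations 1 to 3. The P30 values were all above the P5 values, and mean FPKM went from 8.72 ± 3.91 to 28.9 ± 7.79 (SD, n = 3). The adjusted p of 0.0113 in limma was just outside the limit of 0.01 (log2 fold change 1.67, SE 0.37, 95% interval 0.81 to 2.53). It lay between 0.00801 and 0.0342 in the alternative fits, and passed with quantile normalization and with a pseudocount of 5. Of the FPKM of both enzymes, Loxl2 held 95.9 ± 1.68% at P5 and 73.1 ± 8.61% at P30 (SD, n = 3). P30 isolations 1 to 3 had 81.5%, 73.7% and 64.3%, each below the P5 isolations.

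**Figure D3:**
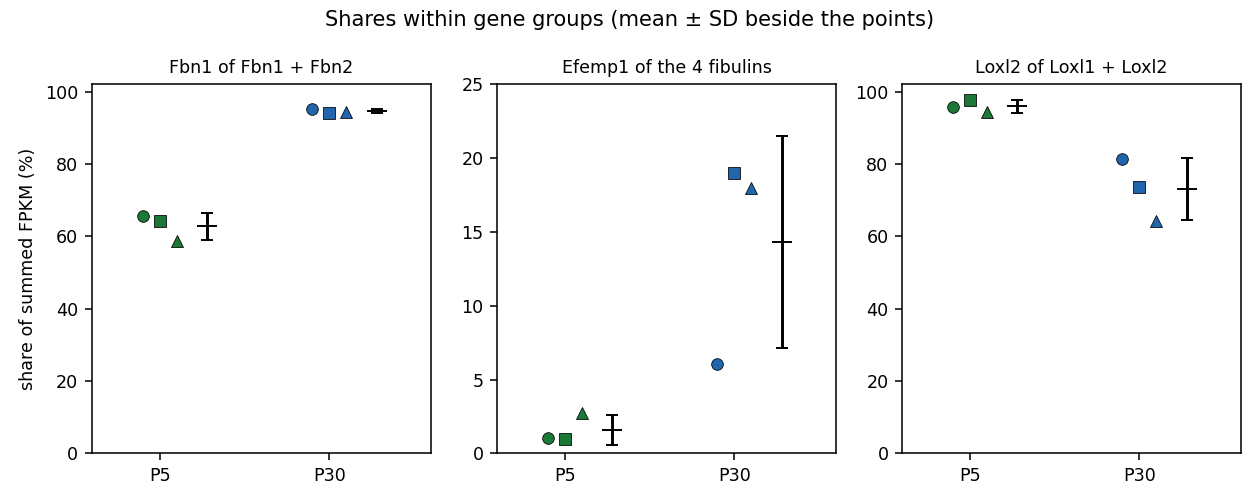
Shares of summed FPKM (y axis, percent) held by Fbn1 among the fibrillins, by Efemp1 among Efemp1, Efemp2, Fbln5 and Fbln2, and by Loxl2 among Loxl1 and Loxl2, in each P5 and P30 isolation (circle, square and triangle for isolations 1, 2 and 3), with mean ± SD beside the points. The Fbn1 share lies near 94.6% in every P30 isolation against 62.8% at P5, while the Efemp1 and Loxl2 shares are spread widely at P30.

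Isolations of the same age differed more at P30 than at P5. The highest P30 value was a larger multiple of the lowest than at P5 in 8 of the 10 genes, all but Mfap2 and Loxl1. The coefficient of variation at P30 was 74.6% for Fbn2, 66.1% for Fbn1, 60.1% for Efemp1 and 53.7% for Eln, against a median of 18.2% over all genes tested. It was 32.0% for Fbln5, 29.98% for Fbln2, 27.0% for Loxl1, 19.8% for Loxl2 and 19.6% for Efemp2, and 13.5% for Mfap2, which was below that median. At P5 the values of Fbn2, Fbn1, Efemp1 and Eln were 13.4%, 25.7%, 47.2% and 27.6%, against a median of 9.37%.

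Some of these genes shared their order of the P30 isolations with markers of other cells. Few orders are possible over 3 isolations, and the marker lists between them took most of these. Matches here and below are therefore given as a description. Fbn1, Fbn2 and Efemp1 were highest in P30 isolation 2 and lowest in P30 isolation 1. Summed FPKM over 8 fibroblast genes was ordered alike, with 1981, 4921 and 2644 in P30 isolations 1 to 3, against 805 to 1319 at P5. Of the fibroblast list, limma called 2 of 8 genes higher at P30 (background 5.89% of all genes tested). Its most abundant genes were Col3a1 (409 ± 123 FPKM at P5 and 764 ± 490 at P30, SD, n = 3) and Dcn (108 ± 42.7 and 1038 ± 348), and Dpt was listed at 0 in every P5 isolation. The 7 pericyte genes, led by Rgs5 and Pdgfrb, summed to 1841, 6228 and 3819 in P30 isolations 1 to 3, against 467 to 1712 at P5. Limma called 1 of these 7 higher at P30 (background 5.89%). Fbn2 shared the order of these lists within P30, while between the ages Fbn2 was lower and the mean of each list higher at P30. At P5, Efemp1 and Loxl1 were highest in isolation 3, as was the fibroblast list, whose sums were 1304, 805 and 1319 in P5 isolations 1 to 3. The part of such cells in these results was not tested.

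Eln and Fbln2 followed another order, highest in P30 isolation 1 and lowest in P30 isolation 3. The RPE list (Ttr and Rgr its most abundant genes) summed to 3920, 2202 and 557 in P30 isolations 1 to 3, and to 222, 171 and 169 in P5 isolations 1 to 3. Of the RPE list, 5 of the 7 genes tested were called higher at P30 (background 5.89%). Rpe65, which defines the RPE, had 2.25, 0 and 0 FPKM in P5 isolations 1 to 3. In P30 isolations 1 to 3 it had 365.2, 232.6 and 50.19 FPKM and was called higher at P30. The melanocyte list (Dct and Pmel) summed to 1281, 1158 and 140 at P30 and to 501, 153 and 146 at P5. Limma called 0 of its 7 genes. The 2 with an unadjusted p under 0.05 in limma went opposite ways. Mean FPKM of Mitf went up from 8.16 to 15.9, and that of Kit went down from 34.6 to 14.2. The photoreceptor gene Rcvrn was listed at 0 in every P5 isolation and had 16.9, 9.16 and 5.54 FPKM in P30 isolations 1 to 3, and Pde6a, also listed at 0 in every P5 isolation, had 9.08, 5.40 and 0. Eln and Fbln2 had the same order over isolations as the RPE and melanocyte lists at both ages. Fbn1, Efemp2 and Fbln5 had this order at P5 too, as did the pericyte and macrophage lists. Other genes matched other lists at both ages, Fbn1 the pericyte, Efemp1 the fibroblast and Loxl2 the smooth muscle list. The P5 values of Eln reached 1322, while the RPE list was at 169 to 222 there. The part of these cells in the Eln and Fbln2 values was not tested.

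Mfap2, Efemp2, Fbln5 and Loxl2 were highest in P30 isolation 2 (Fbln5 by only 62.2 to 62.0) and lowest in P30 isolation 3, as was the smooth muscle list (Smtn and Acta2), with sums of 902, 1469 and 716 in P30 isolations 1 to 3 and 560 to 595 at P5. Of that list, 2 of the 6 genes tested were called higher at P30 (background 5.89%). The order of the sum was not that of every gene in it. Smtn was highest in P30 isolation 1 and lowest in P30 isolation 2. Its FPKM was 448 ± 34.05 at P5 and 421 ± 44.5 at P30 (SD, n = 3). Des and Lmod1 were lowest in P30 isolation 1. The endothelial list (Plvap and Cldn5 its most abundant genes) summed to 28620, 22700 and 29230 at P30 and 17540 to 18880 at P5, with each of the 8 markers at 355.7 FPKM or more in every isolation. Its members did not move alike. Limma called 1 of 8 higher at P30 (background 5.89%), which was Plvap. Plvap went from 4692 ± 140.2 to 11590 ± 2515 FPKM (SD, n = 3) and made up most of the rise in the sum. Cdh5, which encodes the VE-Cadherin used for the sort, had 2971 ± 95.4 FPKM at P5 and 1885 ± 52.4 at P30 (SD, n = 3, limma log2 fold change -0.66, adjusted p = 0.00205), all P30 isolations being lower, but stayed under the 2-fold limit. Pecam1 had 1611 ± 70.8 and 1421 ± 167 FPKM (limma log2 fold change -0.19, adjusted p = 0.230). The order of the summed list over the P30 isolations was that of none of the 10 genes. The macrophage list (Lyz2 and Csf1r), with 7 genes in the files, had 3 genes called higher at P5 (background 5.82%). Its sums were 600.1 to 885 at P5 and 322 to 830 at P30. Its order of P30 isolations likewise matched none of the 10.

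**Figure D4:**
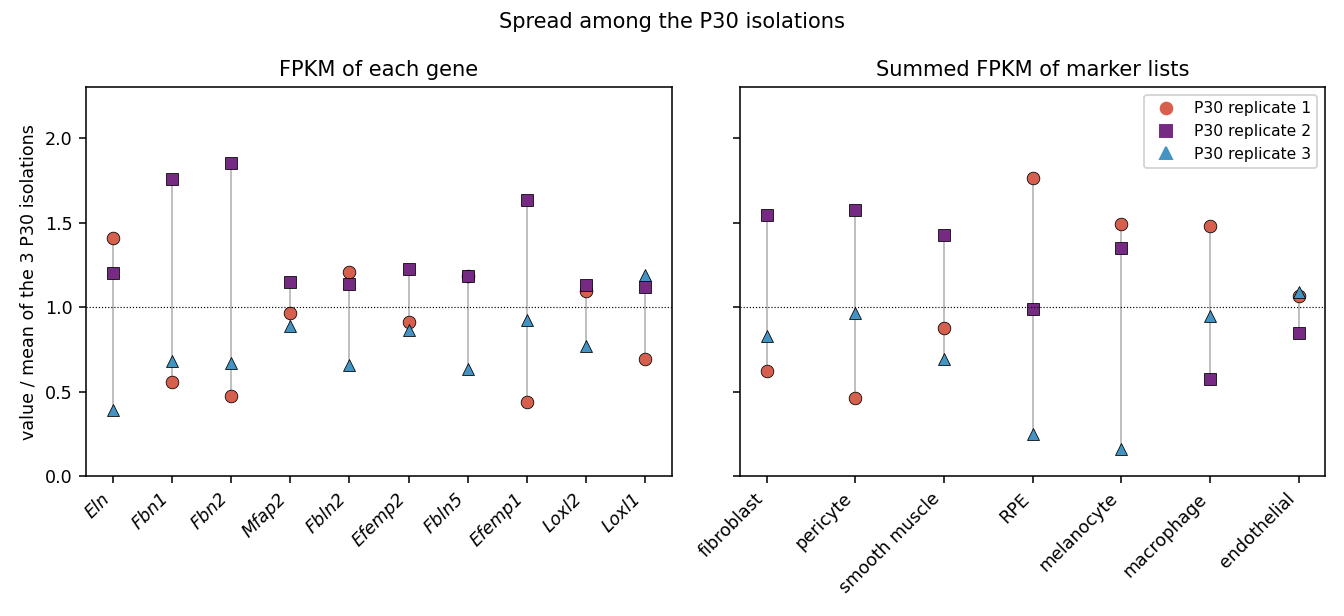
FPKM of each of the 10 genes (left) and summed FPKM of 7 marker lists (right) in P30 isolations 1 to 3, each divided by the mean of the 3 isolations (y axis). Fbn1, Fbn2 and Efemp1 share the order of the fibroblast and pericyte lists with isolation 2 on top. Eln and Fbln2 have isolation 1 on top and isolation 3 at the bottom like the RPE and melanocyte lists. Few orders are possible over 3 isolations.

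Other genes of the elastic fibre system were taken from 6 lists of 40 symbols in all, of which 39 were in the files and 31 were tested. Of these, limma called 8 in the direction of P30 (background 5.89%) and 1 in the direction of P5 (background 5.82%), and their median log2 fold change was 0.74. Among 3 further fibulins in the files, Fbln7 was called higher at P30 (FPKM 5.17 ± 2.88 against 34.1 ± 16.3, SD, n = 3, limma log2 fold change 2.51, adjusted p = 0.00415). The call of Fbln7 was lost without P5 isolation 2 or 3 or P30 isolation 2 (adjusted p = 0.0209, 0.0202 and 0.0108 from limma). The most abundant, Hmcn1, which encodes the giant fibulin hemicentin-1, had 105 ± 13.0 and 70.8 ± 10.5 FPKM and was not called (adjusted p = 0.0219 from limma).

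Of the 13 other microfibril genes, 10 were tested and 3 were called, all higher at P30 (background 5.89%). Adamtsl4, whose product binds fibrillin-1 and is needed for the lens zonule, had 6.61, 4.79 and 5.76 FPKM in P5 isolations 1 to 3. It had 58.5, 66.6 and 50.5 in P30 isolations 1 to 3, roughly level and all far above P5 (limma log2 fold change 3.15 with SE 0.20, adjusted p = 0.000130). Adamtsl2, a fibrillin- and LTBP-binding relative, went from 92.8 ± 29.3 to 252 ± 64.6 (FPKM, SD, n = 3, limma log2 fold change 1.45, adjusted p = 0.00742). Ltbp4, which stores latent TGF-beta on microfibrils and assists fibulin-5 in elastin assembly, went from 301 ± 108 to 697 ± 25.8 (FPKM, SD, n = 3, limma log2 fold change 1.28, adjusted p = 0.00795) and was the most abundant of the list. The calls of Adamtsl2 and Ltbp4 were each lost in 10 of the 16 alternative fits, and that of Adamtsl4 in none of them. Leaving out any isolation but P30 isolation 2 ended the call of Adamtsl2 (limma, adjusted p = 0.0145 to 0.0212). For Ltbp4, any isolation but P5 isolation 2 did so, through the adjusted p (0.0190 to 0.0238 in limma) or, without P5 isolation 3, through the 2-fold limit.

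In the list of emilins and multimerins, the multimerin gene Mmrn1 fell from 138 ± 39.9 to 46.5 ± 8.18 (FPKM, SD, n = 3, limma log2 fold change -1.52, adjusted p = 0.00218). It was the 1 called of 4 tested (background for higher at P5 5.82%). Mmrn2, an endothelial surface member, had 846 ± 129 and 1409 ± 131 FPKM and stayed under the 2-fold limit (limma log2 fold change 0.74, adjusted p = 0.00612). Of the other cross-linking enzymes, limma called 0 of 2 tested (0 at an unadjusted p under 0.05). The most abundant, Lox, had 13.8, 15.4 and 58.2 FPKM in P5 isolations 1 to 3 and 6.37, 46.7 and 19.8 in P30 isolations 1 to 3, a full overlap. Lox, like Efemp1 and Loxl1, was highest at P5 in isolation 3.

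Of 8 proteases that can cut elastin, 5 were tested, and only Ctsl, a lysosomal cathepsin, was called, higher at P30 (background 5.89%). Ctsl had 436 ± 54.7 FPKM at P5 and 1133 ± 112 at P30 (SD, n = 3, limma log2 fold change 1.38, adjusted p = 0.000366). The median log2 fold change of the list was -0.93. Mmp2, Mmp14 and Ctss, 3 of the other 4 genes tested, were not called but had all P30 isolations below all P5 isolations. So did 33% of all genes tested. Ctsk had all P30 isolations above all P5 isolations (24.98 to 72.9 FPKM on average), as 22% of all genes did. It was not called either. Of the lower genes, Mmp14, a membrane-anchored metalloprotease, had a mean FPKM of 408 at P5 and 199.7 at P30 (limma, adjusted p = 0.0149). Among 7 genes for elastin-binding receptors and integrin subunits, 3 were called higher at P30 (background 5.89%). Itgb5, the integrin beta-5 subunit, went from 54.8 ± 16.6 to 203 ± 39.0 (both FPKM, SD, n = 3, limma log2 fold change 1.90, adjusted p = 0.00136), and Itgb3 from 4.81 ± 1.90 to 23.2 ± 9.02 (limma log2 fold change 2.04, adjusted p = 0.00736). Neu1, the sialidase of the elastin receptor complex, rose 1.02 on the log2 scale (limma, adjusted p = 0.00161), and its partner Ctsa, the most abundant of the list, had 188 ± 22.0 and 205 ± 29.3 FPKM (adjusted p = 0.515 from limma). The calls of Itgb3 and Neu1 were lost in 8 and 4 of the 16 alternative fits. That of Itgb3 was lost without any isolation but P30 isolation 1 (limma, adjusted p = 0.0176 to 0.0284), and that of Neu1 without P5 isolation 3 (adjusted p = 0.0101) or, by the 2-fold limit, P30 isolation 1.

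**Figure D5:**
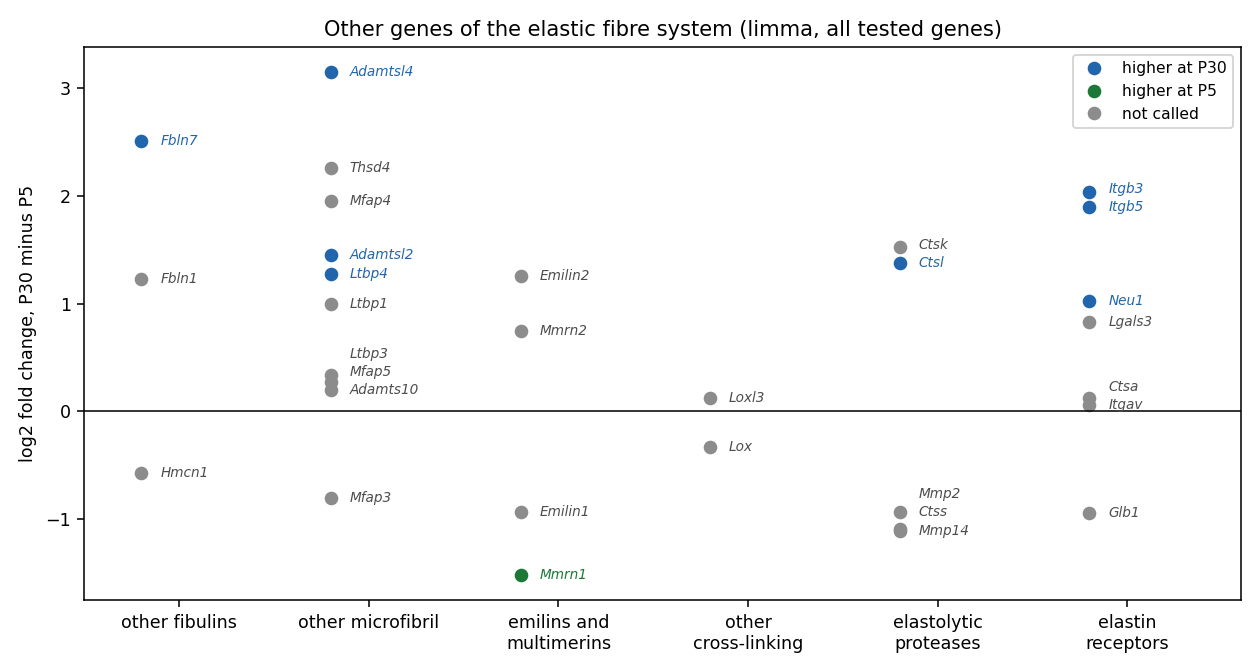
Log2 fold change from P5 to P30 (y axis) of the 31 tested genes in 6 lists of the elastic fibre system, blue for genes called higher at P30, green for the gene called higher at P5 and grey for genes not called. Adamtsl4 (3.15) and Fbln7 (2.51) lie highest and Mmrn1 (-1.52) lowest.

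The genes whose log2(FPKM + 1) followed Eln most closely over the 6 samples were Ctsb, Xpa and Tctn1 (Pearson r = 0.996, 0.990 and 0.980). Ctsb, a lysosomal cathepsin, ran only from 411 to 562 FPKM over those samples, so the likeness is one of shape and not of size. Efemp1 was followed by Serping1, Pawr and Ino80c (r = 0.996, 0.994 and 0.993). Serping1, the C1 inhibitor of complement, had 54.1, 40.7 and 81.5 FPKM in P5 isolations 1 to 3 and 165, 425 and 327 in P30 isolations 1 to 3, with P30 isolation 2 highest as in Efemp1. Nearest to Fbn2 were Ccdc50, Zfp157 and Mib1 (r = 0.999, 0.998 and 0.998). These values were the highest among all genes tested over only 6 samples, which share their age groups, and are given as a description.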

How the data were processed

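RNA of sorted choroid ECs was sequenced from 3 isolations at P5 and 3 at P30. Per the study's methods, the authors prepared TruSeq cDNA libraries, ran them on a HiSeq2000, aligned reads to mm9 with TopHat (default parameters) and let CuffLinks compute FPKM, correcting for GC content and scaling to the upper quartile. The tool versions for these steps and the gene annotation are not given in the sources used here. The authors deposited 1 FPKM value per gene symbol and sample, with no counts, so depth is unknown and no counting error is given. Values summed to between 1433000 and 1735000 FPKM per sample, 33.4% to 37.3% of genes were listed at 0, and no 2 samples were identical.

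From the deposited FPKM, log2(FPKM + 1) was compared between ages in limma 3.58.1 under R 4.3.3 (lmFit, eBayes with a trend, Benjamini-Hochberg over all 12481 genes, no block). The fit was tested on simulated data with the same spread for every gene and both ages. In the real data the median SD of log2(FPKM + 1) was 0.131 at P5 and 0.256 at P30. The simulation therefore does not cover genes of wide spread at P30, such as Fbn2. Limits were an adjusted p under 0.01 and 2-fold in mean FPKM + 1, with a mean of at least 5 FPKM in at least 1 age. Tables were handled in Python 3.11.15 with pandas 2.3.3. The p-values weigh the difference between ages against the spread between isolations of the same age, which limma moderates over all genes tested. Positions were read from GENCODE (mm9) and promoters from RefSeq. The genes and lists were chosen with earlier results of these data known. Named were all 10 genes, in each other list the genes called and the most abundant, of each marker list the 2 most abundant, and for Eln, Efemp1 and Fbn2 the 3 most correlated genes. Dpt, Rpe65, Pde6a, Rcvrn, Mitf, Kit, Des, Lmod1, Cdh5, Pecam1, Mmp2, Mmp14, Ctsk and Ctss were named after their values were seen. Alternatives were other pseudocounts, filters, scalings, weights, limits, a replicate block and leaving out each isolation. Adgre1 of the macrophage list was found under its older symbol Emr1, and Hmcn2 of the fibulins was not found. The summed level of the photoreceptor list is not reported here.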

Additional observations from a re-analysis of the deposited data

How the results depend on the processing

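Over 16 alternative fits, 144 values of the 10 genes kept their direction and their side of the limits, 9 lost the call, 3 gained it and 4 turned in direction. The genes called higher at P30 numbered 0 without a trend, and 2 (Efemp1 and Loxl1) with a pseudocount of 5, with quantile normalization or with an adjusted p limit of 0.05. With 1 isolation left out, the count was between 0 and 1 at P30 and between 1 and 2 at P5, the lower counts coming without P5 isolation 1, 2 or 3 or P30 isolation 3, and Loxl2 was called in each of these fits. With 1 isolation left out, the log2 fold change of Eln lay between -0.881 and 0.0414, above 0 only without P30 isolation 3. That of Efemp2 lay between -0.201 and 0.0511, above 0 without P5 isolation 1, P30 isolation 1 or P30 isolation 3. Lox turned with sample weights (0.259), without P5 isolation 3 (0.32) and without P30 isolation 1 (0.37), in a range from -0.974 over the isolations left out, and Ctsa turned with equal FPKM sums (-0.0480).

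Of the 31 other elastic fibre genes tested, those higher at P30 numbered 8, and 5 with no filter, 5 without a trend and 4 to 6 with 1 isolation left out (5, 5 and 4 without P5 isolations 1, 2 and 3). Those higher at P5 numbered 1, and 2 with quantile normalization, 6 with equal FPKM sums, 3 with sample weights, 3 at an adjusted p under 0.05 and 1 to 4 with 1 isolation left out (2, 3 and 4 without P5 isolation 1, P30 isolation 1 and P30 isolation 2). Over all genes, the calls were 735 for P30 and 726 for P5. An adjusted p limit of 0.05 gave 1130 higher at P30, and leaving out 1 isolation gave 396 to 849 at P30 and 291 to 754 at P5, the lowest without P5 isolation 3 (396 at P30, 297 at P5) and P5 isolation 2 (404 and 291), with 427 at P5 without P5 isolation 1. Equal FPKM sums moved the median log2 fold change of all genes from -0.10 to -0.27, and the share of calls that were higher at P30 from 50.3% to 37.1%. The cause of these moves was not tested, but leaving out an isolation also leaves fewer samples to the fit.

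When the replicate number was added as a block, the calls among the 10 genes were the same (1 higher at P30 and 2 at P5), and 5 of the other elastic fibre genes were higher at P30. Deviations of same-numbered isolations from the mean of their age correlated at -0.0905 to -0.0305 over all genes tested. With 3 isolations per age, this cannot tell whether same-numbered isolations shared a day or batch, which the labels do not say. The depth is unknown, so the counting error of low values, such as those of Loxl1 and Efemp1 at P5 and Fbn2 at P30, could not be given.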
